A study of Mus musculus with 8 samples.

Results

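The genes described here are Nts, Pyy and Insl5, which encode 3 gut peptide hormones of the distal intestine, and 5 genes of receptors that bind neurotensin or peptide YY, namely Ntsr1, Ntsr2, Sort1, Npy1r and Npy2r. They were taken by gene name from the non-control probes of an Agilent mouse array, which gave 8 genes and 12 probes out of 36095 gene names and 55681 probes. Mouse embryos of stage E18.5 gave small intestine RNA for 8 single-colour arrays, at 100 ng of total RNA each. The 4 control arrays were Rfx6 fl/+ (replicates 1, 3 and 4, with 1 floxed Rfx6 allele) and Rfx6 fl/fl (replicate 2, with 2 floxed alleles). The 4 mutant arrays were labelled Rfx6 fl/fl Ngn3-cre, that is, both Rfx6 alleles were floxed and Cre recombinase was driven by Ngn3, a gene of endocrine progenitors. Floxed Rfx6 was therefore carried by all 8 embryos, while Cre was named for the mutants alone, so an effect of Cre itself and one of Rfx6 loss cannot be told apart. The titles carry a different animal number for every sample, so 1 array is 1 replicate. The study's question is which genes are regulated by Rfx6, which encodes an RFX-family transcription factor.

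Enteroendocrine cells are scattered hormone-secreting cells of the gut epithelium. Neurotensin (from Nts) slows gut motility and promotes fat uptake, peptide YY (from Pyy) slows transit and lowers food intake, and insulin-like peptide 5 (from Insl5) is a relaxin-family hormone known mainly from L cells of the colon. Neurotensin acts on the G protein-coupled receptors Ntsr1 and Ntsr2 and also binds sortilin, the sorting receptor encoded by Sort1. Peptide YY acts on the Y receptors, of which Npy1r prefers the full-length peptide and Npy2r also takes the form shortened by the protease DPP4.

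The 3 hormones were each read by a single 60-base probe, and the probe sequences are shown because every hormone value is the brightness of that one stretch of transcript. They come from the array files, are written 5′ to 3′ and carry no capitals.
Nts probe A_51_P485756: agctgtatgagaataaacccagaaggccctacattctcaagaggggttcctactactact
Pyy probe A_52_P366462: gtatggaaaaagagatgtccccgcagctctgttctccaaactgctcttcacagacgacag
Insl5 probe A_55_P2255325: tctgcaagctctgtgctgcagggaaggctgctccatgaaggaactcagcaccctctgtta
By the coordinates in the array files (build mm9), the Nts probe lay on chromosome 10, 101944967 to 101945026, the Pyy probe on chromosome 11, 101968311 to 101968370, and the Insl5 probe on chromosome 4, 102690720 to 102690779, all on the minus strand. Gene models of mm9 were not used.

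Since Nts and Pyy both fell in the mutants, the 250 bases before a start of each gene are shown from the RefSeq promoter table (GRCm38.p6, gene strand, 5′ to 3′). For Pyy, which has 2 listed starts, the more upstream one is shown. Capitals mark every match, on either strand, to the motifs searched.
Nts promoter, chr10:102490419-102490668, minus strand: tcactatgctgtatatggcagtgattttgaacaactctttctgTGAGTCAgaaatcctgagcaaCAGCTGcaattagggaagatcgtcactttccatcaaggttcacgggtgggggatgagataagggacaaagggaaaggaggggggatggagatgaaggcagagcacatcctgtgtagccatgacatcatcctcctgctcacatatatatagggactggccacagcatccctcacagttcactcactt
Pyy promoter, chr11:102107833-102108082, minus strand: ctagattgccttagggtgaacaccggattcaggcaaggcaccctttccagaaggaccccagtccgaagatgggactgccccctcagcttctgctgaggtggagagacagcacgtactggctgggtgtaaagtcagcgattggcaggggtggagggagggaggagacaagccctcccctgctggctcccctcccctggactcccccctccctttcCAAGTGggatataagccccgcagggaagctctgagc
The motifs were the half-sites GTTGCC and GTTACC of the X-box bound by RFX factors, the cyclic AMP response core TGACGT, the AP-1 motif TGANTCA and the E-box CANNTG. In the Nts window the AP-1 motif began 207 bases and an E-box 186 bases before the start. The Pyy window held 1 E-box, 36 bases before the start, and no other motif of the 5. Of 32851 promoters of that length in the table, 10.4% held GTTGCC, 6.06% GTTACC, 6.47% TGACGT, 6.75% TGANTCA and 66.2% CANNTG. Promoters were found for 7 of the 8 genes (9 windows in all, none for Sort1). Among them GTTGCC was present only in that of Npy1r, 143 bases before its start, where an AP-1 motif also began at 231 bases. These matches are descriptions of the letters and were not tested for binding.

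Spot intensity at the 75th percentile ranged from 788 to 1027, and 60.9% to 70.7% of non-control spots were well above background by the scanner software. The probe for the targeted gene, Rfx6, did not separate the groups (log2 level -3.48 to -2.93 in controls and -5.52, -3.37, -3.02 and -3.02 in mutant replicates 1 to 4, limma adjusted p = 0.828 in the fit over all probes). It gave no check of the labels, and in the description field 3 of the mutants (replicates 2, 3 and 4) are tied to other Rfx genes, so the groups are given as labelled. Mutant replicate 1 stood apart from the rest, with a mean correlation to the other arrays of 0.978 against 0.990 to 0.991, and values without it are given where it matters. Across 25330 genes tested with limma, 15 passed an adjusted p of 0.05. The share called lower in the mutants was 0.0553% of genes, and the share called in either direction 0.0592%. The groups did not overlap, with the mutants lower, for 1.63% of genes and, with the mutants higher, for 3.04%. All levels below are log2 processed intensity relative to the 75th percentile of the same array, and all differences are mutant minus control on that log2 scale. Levels of different probes are not comparable with each other.

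Every mutant array read lower than every control for both Nts and Pyy, Nts about 16-fold and Pyy about 3-fold. Insl5 and the receptor genes that could be tested did not pass the threshold. Of the 8 genes, 7 were tested (8 of 12 probes), and 2 of these 7 were called, both lower, against 0.0553% of all genes. The 8 genes were chosen with earlier results of these data known, so this count is a description and not a test. Endocrine cells are a small part of the RNA of whole intestine, and in such bulk samples fewer cells of a type and less RNA per cell cannot be told apart.

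Nts stood at 3.12, 3.14, 3.31 and 2.83 in control replicates 1 to 4 and at -0.77, -0.83, -0.82 and -1.10 in mutant replicates 1 to 4. The groups lay far apart, and the lowest control was 3.60 above the highest mutant. Group means were 3.10 ± 0.20 and -0.88 ± 0.15 (SD, n = 4 each), which differ by -3.98 (SE 0.13, 95% interval -4.27 to -3.69, limma adjusted p = 4.62e-06). This is a 15.8-fold lower level (12.9 to 19.3), so 6.34% of the control level remained (5.18% to 7.75%). The probe stayed well above background on all 8 arrays, with processed intensities between 6841 and 9941 (controls) and between 462 and 556 (mutants), so what remained of the signal was measurable and is not a bound. By size the fall of Nts was the fourth largest of all genes tested, and its p-value was the second smallest. Without mutant replicate 1 the difference was -4.02 (limma adjusted p = 4.08e-05). The single control with 2 floxed alleles, replicate 2, stood between the others at 3.14.

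Pyy stood at 0.86, 0.85, 1.20 and 0.92 in control replicates 1 to 4 and at -0.51, -0.58, -0.57 and -0.83 in mutant replicates 1 to 4. Here too the groups were separate, by 1.36 between the nearest arrays, and control replicate 3 and mutant replicate 4 were the extremes, as they were for Nts. The means were 0.96 ± 0.17 and -0.62 ± 0.14 (SD, n = 4 each), which gave a difference of -1.58 (SE 0.12, 95% interval -1.84 to -1.31, limma adjusted p = 0.00119). The level was 2.99-fold lower (2.48 to 3.59), and 33.5% of the control level remained (27.9% to 40.3%). Processed intensity lay between 1756 and 2305 for controls and between 554 and 662 for mutants, well above background on all 8 arrays. Without mutant replicate 1 the difference was -1.62 (limma adjusted p = 0.00365). The fall of Pyy was smaller than that of 18 other genes and its p-value was the ninth smallest.

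Insl5 did not separate the groups. It stood at 0.94, -0.16, 0.29 and 0.43 in control replicates 1 to 4 and at 0.80, 0.12, 0.69 and -2.07 in mutant replicates 1 to 4. The first 3 mutants lay within the range of the controls, and mutant replicate 4 lay far below every other array. The difference of means was -0.49 (0.38 ± 0.45 against -0.11 ± 1.34, SD, n = 4 each, SE 0.59, limma adjusted p = 0.839). Its 95% interval, -1.84 to 0.86, includes a fall as large as that of Pyy, so an equal level is not shown. Without mutant replicate 4 the difference turned to 0.16 (SE 0.27, limma adjusted p = 0.838). The probe was well above background on all 8 arrays.

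**Figure D1:**
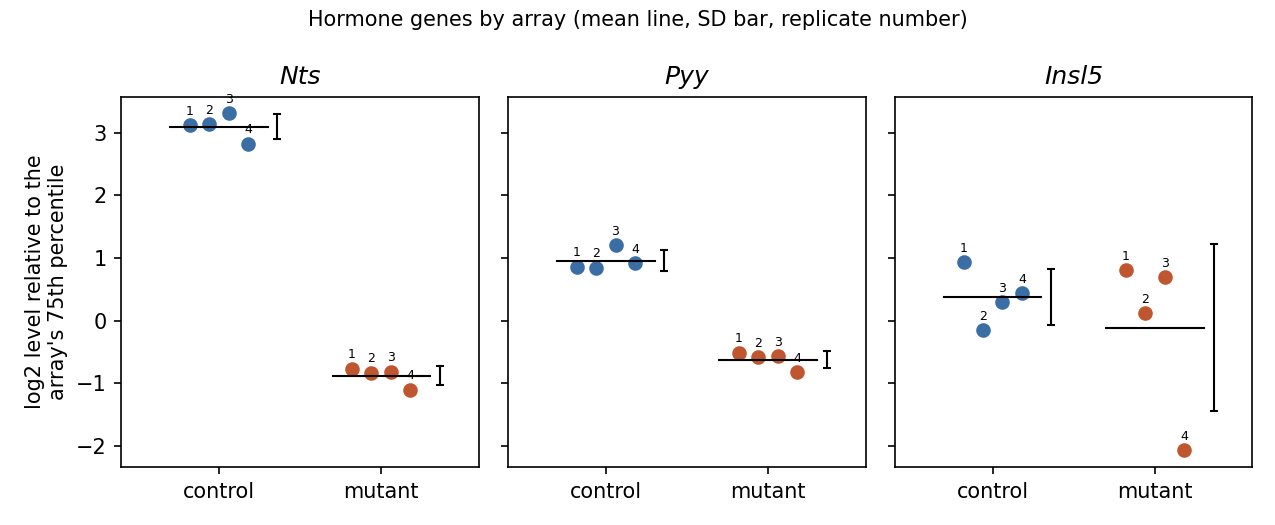
Log2 level relative to the array's 75th percentile (vertical axis) for Nts, Pyy and Insl5 in 4 control and 4 mutant arrays; points carry the replicate number, lines are group means and bars to their right the SD. Every mutant array lies below every control for Nts and Pyy, while for Insl5 mutant replicate 4 at -2.07 lies apart and the other mutants lie among the controls.

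The hormones were next compared within each array, as the log2 value of one gene minus that of another, to ask whether they fell by unequal amounts. Because the probes differ, the zero of such a ratio has no meaning and only its shift between groups is read. A shift is one of probe signal, and whether the probes follow their transcripts equally was not tested. Nts minus Pyy was 2.26, 2.29, 2.11 and 1.91 in controls and -0.26, -0.25, -0.25 and -0.27 in mutants. The mutant arrays were nearly equal to each other (SD 0.011, against 0.18 in controls). The scanner software put the error of each of these spots at about 10% of its signal, so this closeness is not read further. The shift was -2.40, that is, the signal of Nts fell more than that of Pyy in every mutant array relative to every control. The exact permutation test over 70 arrangements of the arrays gave a two-sided p = 0.0286, the smallest this design allows (adjusted p = 0.0357 over 5 ratios).

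Gcg, which encodes the glucagon-like peptides that L cells secrete with peptide YY, gave a further yardstick. Nts minus Gcg moved from 1.48 ± 0.16 to 0.92 ± 0.21, a shift of -0.56, and Pyy minus Gcg moved from -0.66 ± 0.19 to 1.18 ± 0.21, a shift of 1.85 (SD, n = 4 each, exact permutation adjusted p = 0.0357 for both). The probe signal of Nts therefore fell more than that of Gcg and that of Pyy less, with no overlap between groups in either ratio. Nts minus Insl5 moved from 2.72 ± 0.52 to -0.77 ± 1.19, a shift of -3.49 (exact permutation adjusted p = 0.0357), without overlap although mutant replicate 4 stood highest of the mutants at 0.97. Pyy minus Insl5 overlapped between groups (shift -1.09, exact permutation adjusted p = 0.171). Leaving out mutant replicate 4, where Insl5 was lowest, changed this to -1.67 (exact permutation adjusted p = 0.0286). That was the only 1 of 12 alternatives in which Pyy minus Insl5 passed, and the exact permutation adjusted p reached 0.314 in the rest. For the other 4 ratios, leaving out any 1 control (replicate 1, 2, 3 or 4) raised the exact permutation adjusted p to 0.0714 with the direction kept. Leaving out any 1 mutant instead gave 0.0286 or 0.0357 by the same test. With 1 array fewer the arrangements are fewer and the p-value moves in coarse steps. These changes therefore do not measure how far a ratio rests on 1 array.

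**Figure D2:**
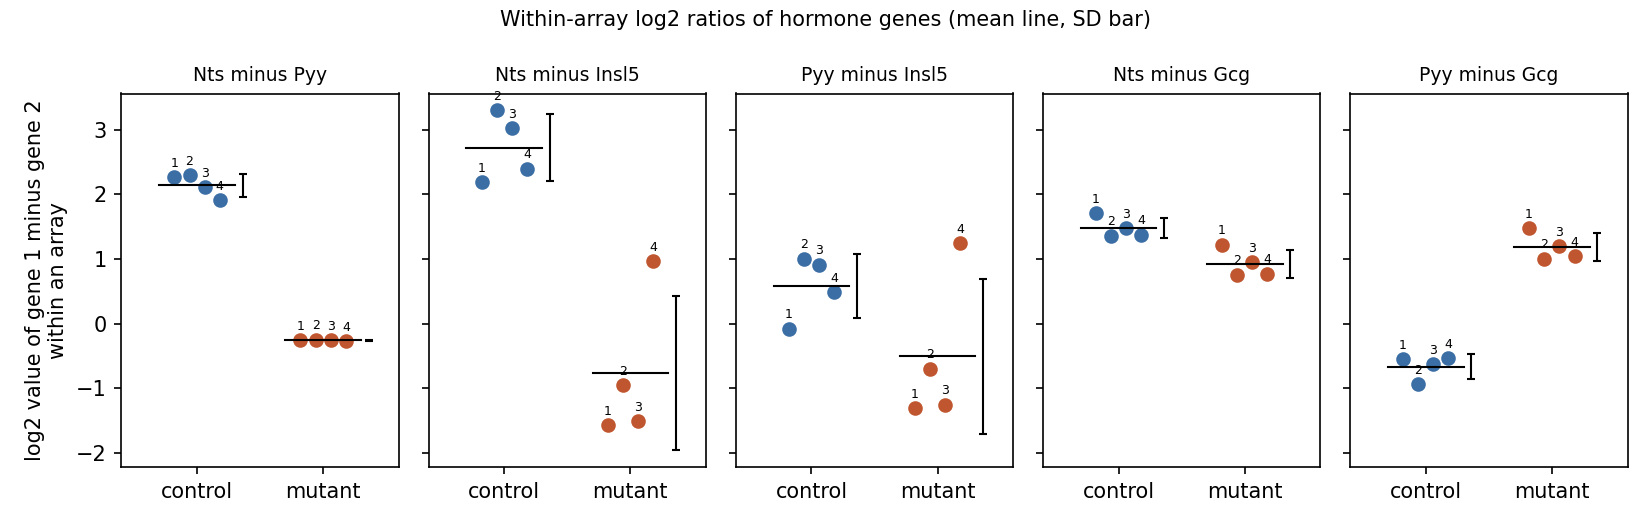
Within-array log2 ratios (vertical axis, log2 value of the first gene minus that of the second) of the hormone genes for 4 control and 4 mutant arrays, with replicate numbers, group means (lines) and SD (bars). Groups are separate in 4 of the 5 ratios, and the mutant values of Nts minus Pyy lie between -0.27 and -0.25.

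The neurotensin receptors were dim. Ntsr1, the high-affinity receptor, was well above background on all 8 arrays with probe A_55_P2005655 (chromosome 2, 180279625 to 180279684). It stood at -2.26, -2.06, -2.77 and -1.94 in controls and at -1.94, -2.25, -2.26 and -2.82 in mutants. The groups overlapped throughout, with a difference of -0.06 (SE 0.23, 95% interval -0.58 to 0.46, limma adjusted p = 0.950). A second Ntsr1 probe, A_55_P2185476 (chromosome 2, 180277825 to 180277884), was well above background only on control replicate 1 at -4.98 and mutant replicate 2 at -5.83 and was not tested. Ntsr2, the low-affinity receptor, was well above background on none of the 8 arrays with either of its probes (chromosome 12, 16666797 to 16666856 and 16666717 to 16666776). Its levels there were -8.20 to -6.32 and -8.18 to -6.90, so no comparison could be made.

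Sort1, the sorting receptor that also binds neurotensin, was well above background on all arrays with both of its probes. Probe A_52_P590396 (chromosome 3, 108164349 to 108164408), which stood for the gene, read 0.39, 0.58, 0.56 and 0.52 in controls and 0.85, 0.35, 0.22 and 0.37 in mutants. The highest mutant was replicate 1 and the other 3 lay just below the controls, and the difference was -0.06 (SE 0.14, 95% interval -0.38 to 0.26, limma adjusted p = 0.910). Without mutant replicate 1 it was -0.20 (SE 0.078, limma unadjusted p = 0.0381, adjusted p = 0.739). The other probe, A_51_P517145 (60 bases placed over chromosome 3, 108157150 to 108159198, hence across an intron), stood at -3.26 to -3.16 in controls and at -3.50 to -2.89 in mutants. Its difference was -0.05 (SE 0.13, limma adjusted p = 0.937 in the fit over all probes), again with mutant replicate 1 the highest array.

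Npy1r, the Y1 receptor, came nearest to a separation among the receptors. Its probe A_55_P2103452 (chromosome 8, 69230632 to 69230691) read -2.94, -2.95, -3.21 and -3.22 in controls and -2.77, -2.81, -2.96 and -2.91 in mutants. Mutant values were higher on average, and only control replicates 1 and 2 reached into their range. The difference of 0.22 (SE 0.10, 95% interval -0.02 to 0.46) did not pass (limma unadjusted p = 0.0702, adjusted p = 0.821). Npy2r, the Y2 receptor, read -3.81, -4.48, -5.25 and -3.99 in controls and -4.52, -4.08, -4.22 and -4.84 in mutants with probe A_51_P311919 (chromosome 3, 82342675 to 82342734). These ranges overlapped, with controls spread over more than 1 log2 unit, and the difference was -0.04 (SE 0.31, 95% interval -0.74 to 0.67, limma adjusted p = 0.980). Its second probe, A_55_P1977676 (chromosome 3, 82343900 to 82343959), was well above background only on control replicate 1, at -5.61.

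**Figure D3:**
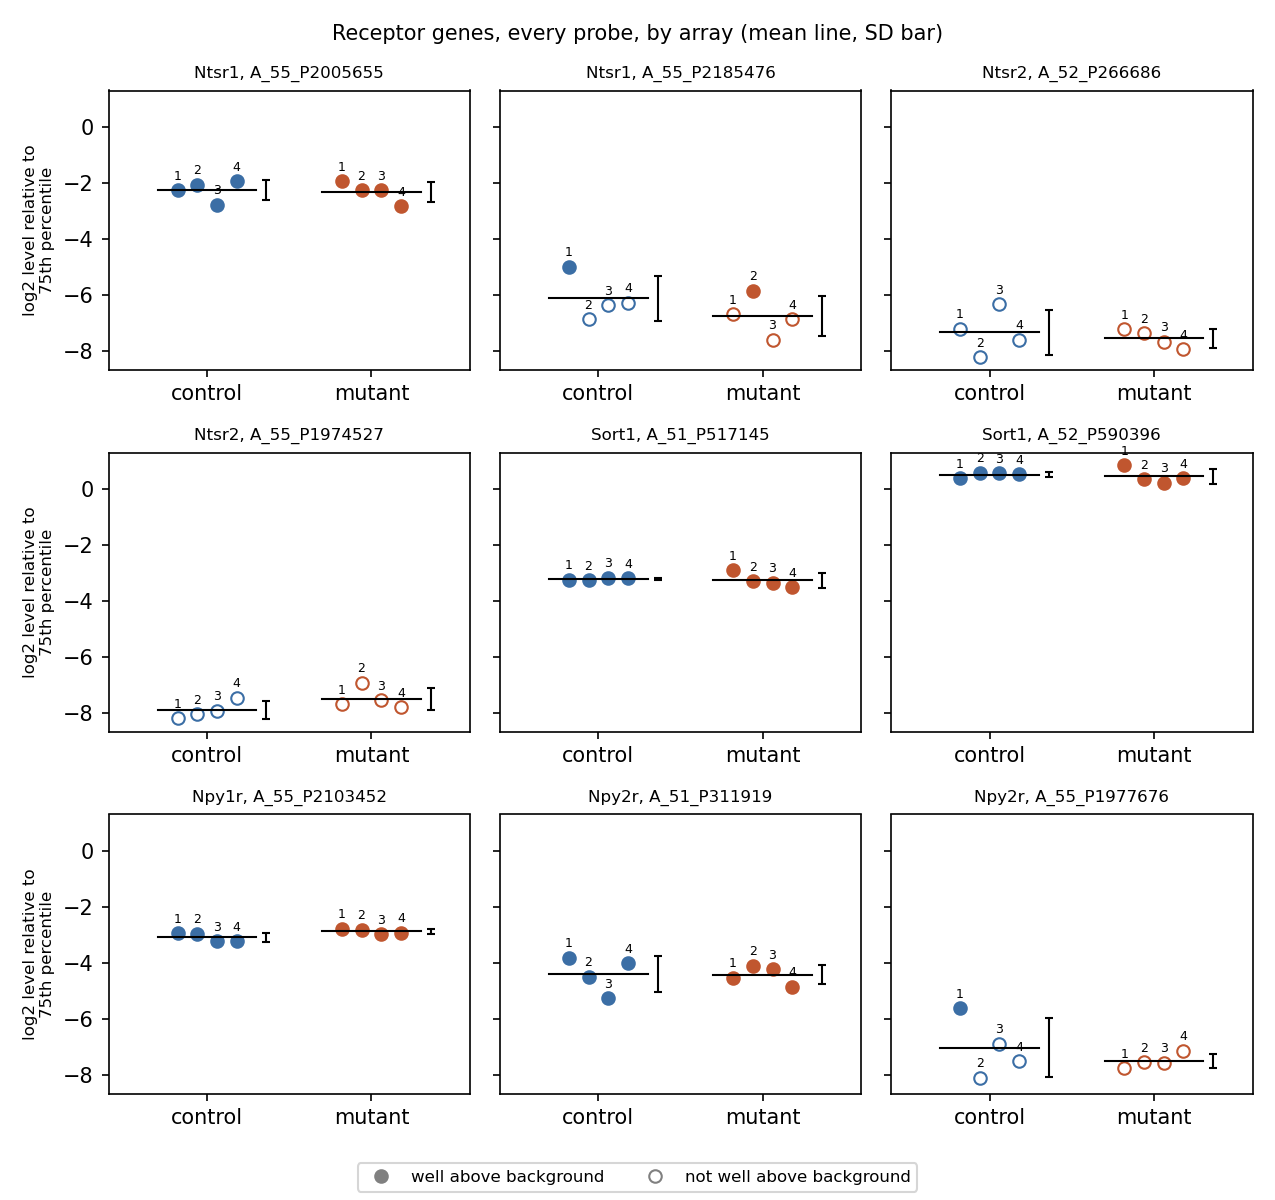
Log2 level relative to the array's 75th percentile (vertical axis) for all 9 probes of the 5 receptor genes in 4 control and 4 mutant arrays, with replicate numbers, means (lines) and SD (bars); filled points are well above background and open points are not. Control and mutant points overlap in each panel, and both Ntsr2 probes have open points only.

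Over the 8 arrays, the genes with a plain symbol whose values were most alike to Nts by Pearson correlation were Gcg (r = 0.996), Cck (0.995), Gip (0.994), Sst (0.994) and Ghrl (0.993). For Pyy they were Nts (0.992), Gcg (0.987), Sst (0.987), Gip (0.983) and Cck (0.979). All of these encode gut hormones that fell in the mutants, and the 8 points of each correlation share the same split into 2 groups and the same arrays. Gip was dim in mutants, at -6.19, -6.41, -5.05 and -6.05 in replicates 1 to 4. In mutant replicates 1, 2 and 4 it lay below the dimmest probe well above background (-5.70, -6.14 and -5.66). Its correlations therefore rest partly on background values. The genes most alike to Insl5 were other ones, Ap2a1 (0.960), Gm3285 (0.959), Gbp10 (0.955), Ceacam2 (0.951) and Cd55b (0.946). Each of those 5 was at its lowest in mutant replicate 4, as Insl5 was, and differed between group means by -0.15 to -0.04 with no call.

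Around these hormones, 38 further genes of the same pathways were read from 6 lists, of which 37 were on the array by name and 29 were tested. Among the 29, 11 were lower and 18 higher, and 4 were called lower and 0 higher, against 0.0592% of all genes called. Their median difference was 0.058 against 0.031 over all genes. The lists were chosen with earlier results of these data known, so these counts are a description and not a test. All 4 called genes belonged to the list of partner hormones and transcription factors of L and N cells, in which 8 of 9 were tested, 6 were lower and 2 higher, and the median was -0.61. The same 4 passed without mutant replicate 1. One of the 4, Isl1, was bright enough to be tested only in controls.

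Gcg was at 1.62 ± 0.22 in controls and -1.80 ± 0.17 in mutants (SD, n = 4 each), which is a shift of -3.42 (SE 0.14, limma adjusted p = 1.21e-05). Cck, the hormone of I cells that is also made by neurotensin cells, fell by 2.49 (SE 0.13, limma adjusted p = 9.17e-05) from 4.39 ± 0.19 to 1.90 ± 0.17. Sct, which encodes secretin, was lower by a smaller step, -0.997 (SE 0.11, limma adjusted p = 0.0290), and this call held in 9 of 19 alternative settings. Leaving out any control, or mutant replicate 2, 3 or 4, ended it (limma adjusted p 0.0653 to 0.172) at differences of -1.03 to -0.91. Median scaling (-0.98, limma adjusted p = 0.0588) and testing all probes without a filter (limma adjusted p = 0.0901) also ended it.

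Isl1, a LIM-homeodomain factor of endocrine cells, read -3.85, -4.01, -4.29 and -4.04 in controls and -6.99, -6.32, -6.30 and -6.67 in mutants, so the groups lay apart. It was well above background on 4 controls and 0 mutants, so it entered the test only through the group in which it was bright, and its call is given as a description. In the main processing the control level was at least 3.19-fold higher (measured means -4.05 ± 0.18 and -6.57 ± 0.33, SD, n = 4 each). The bound sets the control mean against the mean, over the mutant arrays, of 1 value per array, the probe's own or, if higher, that of the dimmest probe well above background. This bound takes in dim signal and not the spread between arrays, and it does not hold under other treatments of the background. The difference was -2.52 as fitted, -0.63 with normexp correction and -0.70 with the deposited values. Neurod1 (0.49), Nkx2-2 (0.058), Etv1 (-0.22) and Insm1 (-0.09) were not called. Without mutant replicate 1 these genes differed by 0.11, -0.013, -0.12 and -0.21 in the same order, again with no call. Pax6 was well above background on 2 controls and no mutant and was not tested.

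The other lists held no called gene. In the PYY family, Npy4r, the Y4 receptor for pancreatic polypeptide, differed by 0.32 (limma adjusted p = 0.821). Npy6r was well above background on 1 control and 4 mutants, at -7.82 to -5.20 in controls and -5.63 to -4.30 in mutants, ranges that overlapped. It was not called. In the main processing the mutant mean was 1.62-fold higher by the same kind of bound as for Isl1. Such a bound takes in dim signal and not the spread between arrays, which was wide here (SE 0.58 for the fitted difference). The difference was 1.44 as fitted and 0.23 to 1.87 over 18 alternatives, so this bound does not hold in all of them. Npy and Npy5r were well above background on none of the 8 arrays and Ppy on 1 control, and these 3 genes were not tested. The 4 sortilin relatives Sorl1, Sorcs1, Sorcs2 and Sorcs3 differed by 0.05 to 0.24.

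In the relaxin family, Rxfp4, the receptor of insulin-like peptide 5, was well above background on none of the 8 arrays, at -8.19 to -7.27. Rxfp1, Rxfp2 and Rln1 were likewise above background on none, and Insl3 was not found by name. The 3 tested members were Rxfp3 (-0.11), Rln3 (0.23) and Insl6 (0.10). Without mutant replicate 1 they differed by -0.17, 0.23 and -0.11, so Insl6 had no stable sign.

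Among 7 genes for processing of hormone precursors, 2 were lower and 5 higher, none called. Pcsk1 and Pcsk2, the prohormone convertases, differed by 0.11 and -0.08, Pcsk5 by 0.14, and Cpe, which trims the cut ends, by -0.0054. Pam, which forms the C-terminal amide that peptide YY carries, is named because of its values: it read -0.88, -0.41, -0.73 and -0.58 in controls and 0.73, 0.71, 0.72 and -0.70 in mutants. Mutant replicates 1 to 3 were thus close together above every control, and mutant replicate 4 lay among the controls. The difference was 1.02 (SE 0.32, limma adjusted p = 0.821), and without mutant replicate 4 it was 1.37 (limma adjusted p = 0.0153). Pam passed in that 1 of 19 alternatives only, which leaves out the array that lay among the controls. In the rest its limma adjusted p reached 0.942. Of 5 enzymes that degrade these peptides, Dpp4 differed by -0.12, Mme by -0.21, Ece1 by 0.08 and Thop1 by 0.21. Thop1 was the 1 pathway gene whose groups did not overlap with the mutants higher (limma adjusted p = 0.821), against 3.04% of all genes.

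**Figure D4:**
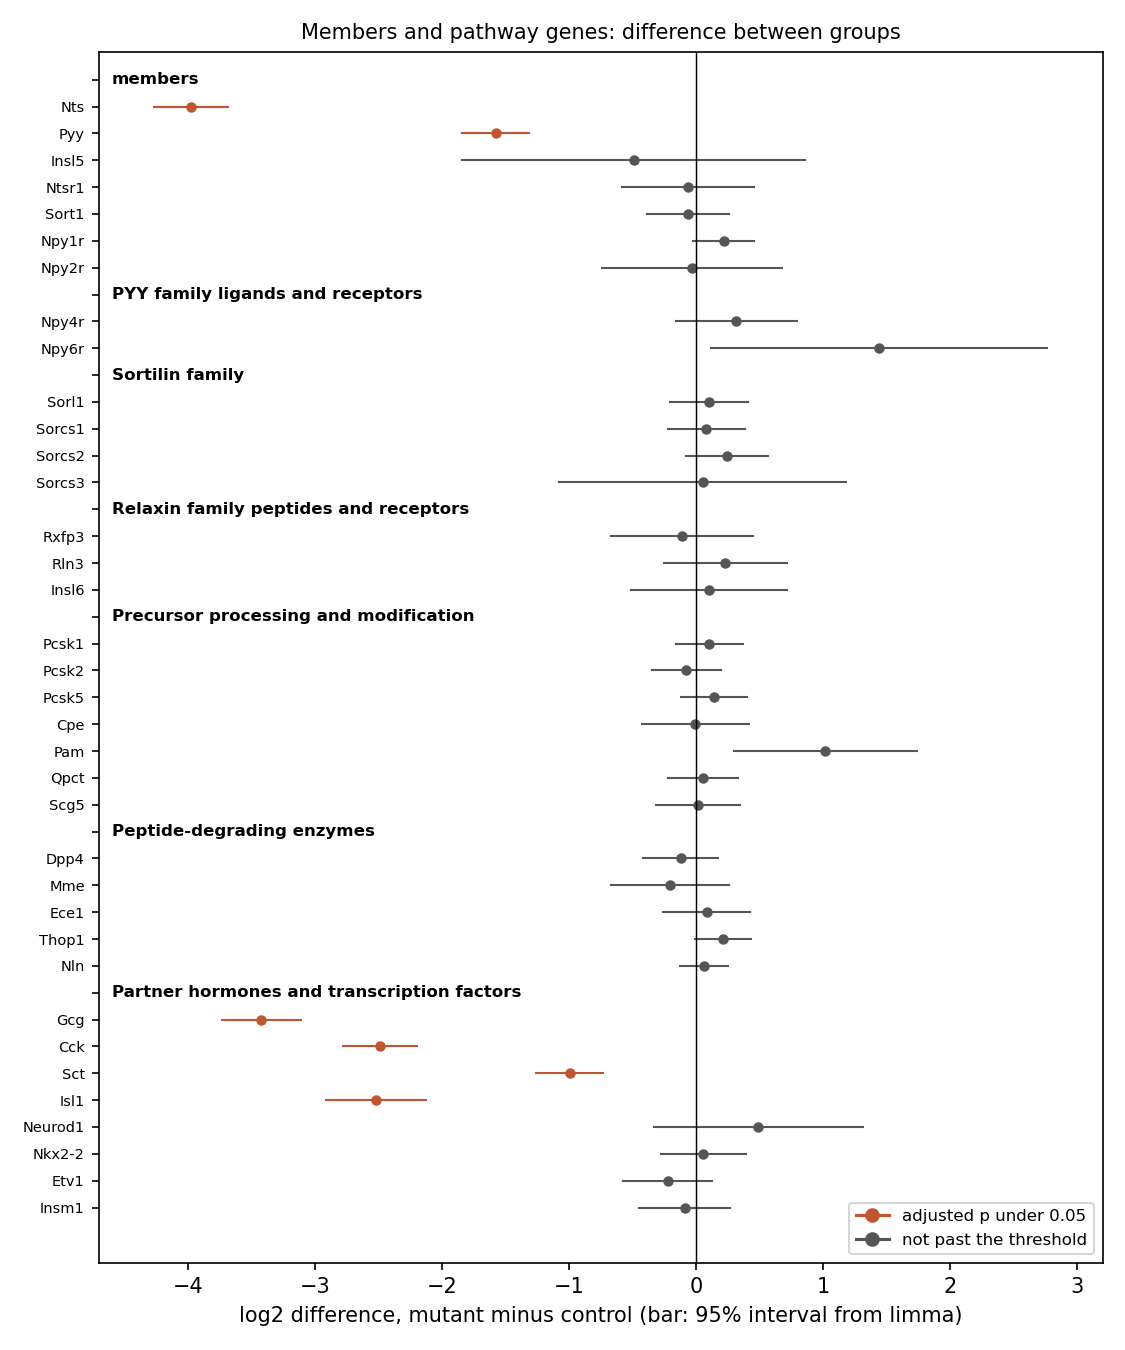
Log2 difference, mutant minus control (horizontal axis), with 95% intervals from limma, for the 7 tested hormone and receptor genes and the 29 tested genes of the 6 pathway lists. Red marks the genes with an adjusted p under 0.05, namely Nts, Pyy, Gcg, Cck, Sct and Isl1, which all lie left of 0; Isl1 and Npy6r, each dim in one group, are drawn at their fitted differences, which are not bounds.

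Since Nts, Pyy and Insl5 are regional hormones, markers of gut regions and of other cell types were read beside them, with the sum of linear levels of a list in each array. Of 4 ileum markers, 2 were higher in every mutant than in any control, against 3.04% of all genes. These were Fabp6, an ileal bile acid-binding protein, and Fgf15, the ileal growth factor. Neither passed the test (2.33, adjusted p = 0.294, and 3.06, adjusted p = 0.513, limma), and Slc10a2 and Mep1a differed by -0.32 and -0.03. The ileum sum was 76.9 to 85.6 in controls and 93.8 to 177 in mutants. Such a sum follows its brightest probes, here Mep1a (mean 6.04 in controls and 6.01 in mutants) and Fabp6 (3.58 and 5.91). Proximal markers (3 of 3 tested) summed to 345 to 377 and 324 to 416. Of 5 colon markers, Hoxb13 and Hoxd13, which define the hindgut, were well above background on none of the arrays, and the other 3 summed to 11 to 14.6 and 11.6 to 18.8. Enterocyte markers (5 of 5 tested) had a median difference of 0.064 and summed to 1130 to 1251 and 1076 to 1391.

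Of 6 general endocrine markers, 4 were lower and 2 higher, and Scg2 was called (-1.13, limma adjusted p = 0.0102). Scgn differed by -1.06 (limma adjusted p = 0.239), and for it as for Scg2 every mutant lay below every control, against 1.63% of all genes. Chga, Chgb, Scg3 and Syp differed by -0.27, 0.03, -0.24 and 0.14 and overlapped between groups. The sum of the 6 was 47.5 to 55.6 in controls and 44.6 to 50.7 in mutants, and such a sum follows its brightest probes. None of 6 enteric neuron, 3 glial and 4 smooth muscle markers was called, with sums of 6.05 to 9.31 against 7.59 to 9.32, 1.43 to 1.87 against 1.39 to 1.62, and 158 to 238 against 217 to 300. Pancreatic acinar markers (4 of 5 tested) summed to 0.741 to 1.96 in controls and 2.51 to 13.2 in mutants, and none was called. Amy2a5 and Cela2a were higher in every mutant than in any control, against 3.04% of all genes. Cela2a was well above background on 0 controls and 4 mutants, so it entered the test only through the group in which it was bright. Islet markers (4 of 4 tested) summed to 0.701 to 0.956 and 0.487 to 0.624, and none was called. Iapp differed by -1.74 (limma adjusted p = 0.0618), Ins1 by -0.43, Ins2 by -0.10 and Pdx1 by 5.4e-05, so the markers did not move together. The part of ileal, acinar and islet RNA in the fall of Nts and Pyy was not tested.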

How the data were processed

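Labelled RNA from the small intestine of 8 embryos was hybridised to 1 slide with 8 arrays and read in 1 scan, each slide row holding 2 controls and 2 mutants. Per the file headers, the authors deposited linear spot intensity values from Agilent Feature Extraction 10.10.1.1, background-subtracted within each array and annotated on mm9. They also deposited a table of intensity values whose processing is not given in the sources used here. Its ranks matched the median pixel intensity (rho 0.99997 to 0.99998), and it served as an alternative.

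Processed intensity was divided by its 75th percentile over the non-control spots of the array and put on the log2 scale. Outlier spots (117 to 157 per array) were dropped, spots of a probe were averaged, and no spot was saturated. Probes well above background on at least 4 of 8 arrays, counted without regard to group, were tested, and the one with the highest mean stood for its gene (25330 genes). The 2 groups were fitted in limma (version 3.58.1, R 4.3.3; two-sided, no covariates), and Benjamini-Hochberg adjusted p-values over all tested genes under 0.05 were called. Within-array ratios were compared by exact permutation over arrays. The scripts were tested on simulated data. Probes were named through RefSeq accessions for 26582 probes and older symbols for 492, and 28607 kept the file's name.

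The genes and lists were chosen with earlier results of these data known. From each list, called genes were named with values, others by range and at most 4 examples in list order, and Pam after its values were seen. A further listed gene is not reported here. The number of arrays limits the precision. The 19 alternatives changed background correction, scaling, filter, choice of probe, array weights, block or the arrays left out.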

Additional observations from a re-analysis of the deposited data

Results flagged for a closer look

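Of 82 groups of 4 arrays examined (24 for probes of the 8 hormone and receptor genes, the rest for pathway genes), 4 held an array far from the other 3 by Dixon's criterion, and chance marks about 5% of groups. None of the 4 was for a probe of those 8 genes. Pam in mutant replicate 4 stood at -0.70, against 0.71 to 0.73 in the other mutants. Cck in mutant replicate 1 stood at 2.16, against 1.80 to 1.83 in the other mutants and at least 4.14 in controls. Nkx2-2 in mutant replicate 1 stood at -2.85, against -3.15 to -3.11 in the other mutants. Thop1 in control replicate 1 stood at 0.14, against 0.35 to 0.37 in the other controls. Insl5 in mutant replicate 4, at -2.07 against 0.12 to 0.80, did not reach the criterion.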

How the results depend on the processing

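Nts passed in 19 of 19 alternatives, at -4.07 to -3.82, and Pyy in 18 of 19, at -1.62 to -1.45. Fitted with the replicate number as a block, Pyy was -1.58 with a limma adjusted p of 0.0548, and the counts of genes and pathway genes called were 7 and 2, against 15 and 4 (Sct and Isl1 had adjusted p of 0.227 and 0.0559 at unchanged differences). The numbers do not pair the embryos by the labels, and the correlations of same-numbered deviations were -0.093, 0.055, -0.069 and 0.088, with 1 of 4 pairs best with its own number. Array weights called 40 genes, 27 lower and 13 higher (mutant replicate 1 had a weight of 0.124), and normexp 27, 19 lower and 8 higher, against 14 lower and 1 higher. Requiring all 8 arrays above background left 3 pathway genes called, as Isl1 was then not tested. Leaving out 1 array gave 10 to 22 genes called. The differences of Npy2r and Ntsr1, near 0, had no stable sign. Npy2r was 0.047 with array weights and 0.010 with normexp, and over left-out arrays it was -0.32 to 0.16 and Ntsr1 -0.23 to 0.11. Sort1 (-0.20 to 0.012 over left-out arrays) and Insl5 (-0.80 to 0.16) were each negative in 18 of 19 alternatives and called in none. Over the same left-out arrays Nts minus Pyy was -2.48 to -2.35, Nts minus Insl5 -4.07 to -3.22, Pyy minus Insl5 -1.67 to -0.82, Nts minus Gcg -0.66 to -0.48 and Pyy minus Gcg 1.75 to 1.90. Npy1r stayed positive and uncalled in all 19. No scaling moved the median of all genes by over 0.1. Signal over background limits Ntsr2, Rxfp4 and the second probes of Ntsr1 and Npy2r, for which no difference was detectable.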
